A study of Rattus norvegicus with 30 samples.

Results

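The genes described here carry fatty acids from uptake to oxidation in the heart, together with the receptors that control them. They are 41 rat genes chosen by symbol from what is known of the pathway: 3 for uptake and binding, 5 acyl-CoA synthetases, 3 acyl-CoA thioesterases, 5 of the carnitine shuttle, 2 that set malonyl-CoA, 12 of mitochondrial beta-oxidation, 3 of the electron transfer flavoprotein system, 3 of peroxisomal oxidation, 3 transcriptional regulators and 2 uncoupling proteins. The choice was made with earlier results of these data known. Each gene was represented by its brightest probe among those whose transcript accession matched its symbol. All 41 passed the limit on dim probes, which asked that a probe be well above background on at least 4 of the 5 arrays of any group, and so were among the 18333 genes tested of 26785 on the array. Each met this limit in all 6 groups: 38 were well above background on all 30 arrays, and Slc22a5, Acsl3 and Acsl4 were so on 25, 28 and 29.

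The samples were left ventricles from Sprague Dawley rats, all male and 16 to 18 weeks old, 5 per group in 6 groups, each hybridised to a single-colour array. Rats ate a diet high in sucrose, over 8 to 10 weeks, or chow. From each diet came hearts perfused with 25 mmol/L glucose, hearts perfused with 25 mmol/L mannitol as the osmotic control without glucose, and hearts frozen without perfusion. Perfused hearts worked for 60 min outside the body against a set filling pressure and afterload, in a buffer whose other substrates were the same with and without glucose (propionate at 2 mmol/L, acetoacetate at 1 mmol/L and DL-beta-hydroxybutyrate at 10 mmol/L). The non-perfused hearts therefore differ from the perfused ones in working outside the body, in buffer in place of blood and in time, all at once. The labels number the replicates of each group from 1 to 5 and do not tie the numbers to animals, so p-values measure the spread between these samples only.

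Fatty acids enter the cardiomyocyte through CD36 and transport proteins, are bound in the cytosol by FABP3 and are activated to acyl-CoA by the ACSL enzymes. The carnitine shuttle, gated by CPT1B and its inhibitor malonyl-CoA, brings them into mitochondria, where beta-oxidation shortens them and hands electrons to the respiratory chain through the electron transfer flavoprotein. PPAR-alpha and PPAR-delta are nuclear receptors that bind fatty acids and raise transcription of many of these genes, with PGC-1alpha as their coactivator, and the adult heart draws much of its energy from this pathway.

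The receptors bind DNA through the hexamer AGGTCA, usually as a direct repeat with 1 base between. The promoters of Acsl4, Acacb, Acot1 and Ucp2 are shown because these members, of those in the RefSeq table, changed with perfusion in more than 1 comparison or had the smallest p-values between diets. Each is the strand of the gene, 5′ to 3′, from 250 bases before to 50 bases after the start, as given by RefSeq on GRCr8. Capitals mark AGGTCA or its reverse complement TGACCT. The windows are chrX:110803212-110803511 on the minus strand for Acsl4, chr12:48138165-48138464 on the minus strand for Acacb, chr6:109367024-109367323 on the plus strand for Acot1 and chr1:164251123-164251422 on the plus strand for Ucp2.
Acsl4: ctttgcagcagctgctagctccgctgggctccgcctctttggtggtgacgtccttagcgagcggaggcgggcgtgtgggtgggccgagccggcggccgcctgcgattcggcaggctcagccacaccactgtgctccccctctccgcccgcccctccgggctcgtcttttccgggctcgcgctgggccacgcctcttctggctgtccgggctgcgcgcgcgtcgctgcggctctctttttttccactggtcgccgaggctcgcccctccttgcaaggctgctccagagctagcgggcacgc
Acacb: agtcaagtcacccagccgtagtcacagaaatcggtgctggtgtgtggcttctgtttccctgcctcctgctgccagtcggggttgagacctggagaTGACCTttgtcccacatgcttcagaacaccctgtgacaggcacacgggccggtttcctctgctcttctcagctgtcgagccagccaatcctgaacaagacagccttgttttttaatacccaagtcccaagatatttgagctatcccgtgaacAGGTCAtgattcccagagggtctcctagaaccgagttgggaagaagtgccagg
Acot1: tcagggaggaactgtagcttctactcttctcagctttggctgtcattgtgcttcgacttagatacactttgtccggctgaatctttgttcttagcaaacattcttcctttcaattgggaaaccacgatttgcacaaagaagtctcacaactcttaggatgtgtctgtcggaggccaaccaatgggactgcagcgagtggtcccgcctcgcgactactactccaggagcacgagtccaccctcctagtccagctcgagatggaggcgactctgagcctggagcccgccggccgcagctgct
Ucp2: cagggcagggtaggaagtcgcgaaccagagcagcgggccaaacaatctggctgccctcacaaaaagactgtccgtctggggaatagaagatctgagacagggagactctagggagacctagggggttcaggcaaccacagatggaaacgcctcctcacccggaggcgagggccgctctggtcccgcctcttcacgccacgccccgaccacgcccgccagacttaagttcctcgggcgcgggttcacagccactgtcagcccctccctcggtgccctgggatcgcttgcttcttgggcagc
Acacb held the hexamer at bases 96 to 101 on the opposite strand and at bases 248 to 253 on the gene's strand, and the other windows held none. RefSeq promoters were at hand for 36 of the 41 members. On either strand, AGGTCA lay in 9 of the 36 windows (25%), those of Acacb, Acadvl, Echs1, Eci1, Eci2, Hadhb, Hsd17b4, Slc27a1 and Ucp3, and in 16.2% of all 33469 windows of that length. The full repeat, AGGTCA and AGGTCA with 1 base between, lay in 0 of the 36 and in 0.0538% of all windows, and a relaxed repeat, NGGNCA followed by any base and AGGNCA, whose matches include those of the full repeat, lay in 1 of the 36, that of Acacb, and in 0.801% of all.

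Between arrays, 48.8% to 75.4% of probes were well above background and no probe was saturated. The arrays lay on 5 slides, of which 4 held all 6 groups, while sucrose mannitol replicate 1 was alone on the other. That array was also scanned on a different day from all the others. Each slide had 2 rows. Row 1 took the arrays of non-perfused hearts and of chow mannitol hearts, and row 2 those of glucose hearts. Of the sucrose mannitol arrays, 4 were in row 2 and the array alone on its slide was in row 1, so that diet in mannitol hearts largely moves with the row. On 4 arrays, 3 from non-perfused and 1 from sucrose mannitol hearts, the negative controls had a standard deviation over 8 intensity units. All 8 cardiomyocyte markers were measured. Of 8 adipocyte markers 4 were measured (Cfd, Retn, Fabp4 and Lipe), while Adipoq was well above background on 0 of 30 arrays. Of 5 liver markers 2 were measured (Ttr and Cyp2e1), while Alb was well above background on 0 of 30. Of 6 red blood cell markers, 5 were lower after perfusion in each of the 4 comparisons with non-perfused hearts, with medians of -5.10 to -5.96 on the log2 scale.

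Whether a high-sucrose diet altered the fatty acid genes was asked within each of the 3 states and as the average over them. No member differed between sucrose and chow hearts past the threshold, an adjusted p of 0.05 in limma over all 18333 genes, in non-perfused, mannitol or glucose hearts or on average. The direction was still uneven: averaged over the states, 34 of 41 members (82.9%) lay lower in sucrose hearts, against 55.9% of all genes tested, with a median difference of -0.09 against -0.01 on the log2 scale. All 12 genes of mitochondrial beta-oxidation, all 5 of the carnitine shuttle, all 3 of uptake and binding, all 3 of the electron transfer flavoprotein system and all 3 of peroxisomal oxidation were on the lower side, while the 3 transcriptional regulators were on the higher side. The differences were small, and none of these groups of genes was tested as a group. Because the 41 were chosen with earlier results of these data known, their contrast with all genes is not independent support. The carnitine shuttle (5 of 5) and peroxisomal oxidation (3 of 3) stayed on the lower side under every alternative and with each array left out. Within the 4 complete slides, however, Slc22a5 of the shuttle and Acaa1a of peroxisomal oxidation each lay lower in 2 and higher in 2. Cpt1a of the shuttle lay lower in 3, and the second probe of Acaa1a gave -0.02 on average. In the other groups single genes near 0 crossed it under some alternatives: Acads and Echs1 in beta-oxidation, Etfa of the flavoprotein system, Slc27a1, a transport protein for uptake, and Ppard among the regulators. Ppard was -0.04 with the mean of its probes and -0.11 on its second probe, and lay higher in 2 and lower in 2 of the 4 complete slides, so it has no settled direction between diets. Leaving out chow glucose replicate 5 or sucrose glucose replicate 3 put Etfa at 0.00, and leaving out sucrose glucose replicate 1 put Ppard at -0.01.

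Of all genes tested, 0% passed in non-perfused hearts, 0.00545% in mannitol hearts, 0% in glucose hearts and 0.00545% on average, which is 1 gene in the mannitol comparison and 1 in the average. At an unadjusted p under 0.05, 3 of 41 members in non-perfused hearts (all lower), 11 in mannitol hearts (10 lower), 4 in glucose hearts (3 lower) and 18 on average (17 lower) stood out, against 3.34%, 7.94%, 4.39% and 6.51% of all genes. Counting only lower genes, the shares of all genes were 1.9%, 5.41%, 1.93% and 3.68%. In percent, the members' shares were 7.32, 26.8, 9.76 and 43.9. Members lower in sucrose hearts numbered 28 of 41 in non-perfused, 35 in mannitol and 35 in glucose hearts, where 52.7%, 57.8% and 48.2% of all genes were lower. The member medians there were -0.06, -0.12 and -0.10, beside all-gene medians of -0.01, -0.03 and 0.01. Without sucrose non-perfused replicate 1 the non-perfused count was 23 of 41 and its median -0.02, and without all 4 arrays of high control spread 24 and -0.02. With quantile normalization the mannitol median was -0.05, and with slide as a fixed block -0.18. With the authors' deposited values the medians were -0.14 in non-perfused hearts, beside -0.12 for all genes, and -0.03 in glucose hearts, beside 0.09. The 3 states use separate arrays, and within each of the 4 complete slides 35, 28, 29 and 37 of the 41 lay lower in the average. The share of all genes was not counted within slides.

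Diet and slide row cannot be told apart in the mannitol hearts. When only the non-perfused and glucose hearts were averaged, in which both diets lay in 1 row, 33 of 41 members were lower, beside 50.3% of all genes, with 8 at an unadjusted p under 0.05 and a median of -0.06. This setting was chosen after the data were seen.

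Markers of other cell types also differed in level between the diets, none past the threshold. In mannitol hearts the 8 cardiomyocyte markers had a median difference of -0.20 (2 of 8 at an unadjusted p under 0.05), the 6 fibroblast markers 0.15 and the 4 smooth muscle markers 0.36. The summed cardiomyocyte level there was 11.41 to 12.03 on sucrose and 11.85 to 12.22 on chow. In glucose hearts the medians were -0.03, 0.13 and 0.34, and in non-perfused hearts 0.10, -0.02 and 0.13, for cardiomyocyte, fibroblast and smooth muscle markers. Red blood cell medians were -0.611, -0.26 and 0.05 in mannitol, glucose and non-perfused hearts. In the same order, adipocyte medians were -0.185, 0.005 and -0.047 and endothelial medians -0.074, -0.151 and 0.02. Macrophage and leukocyte medians were 0.197, -0.011 and -0.13, and those of the 2 liver markers -0.378, -0.315 and -0.257. Their part in the members' differences was not tested.

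**Figure D1:**
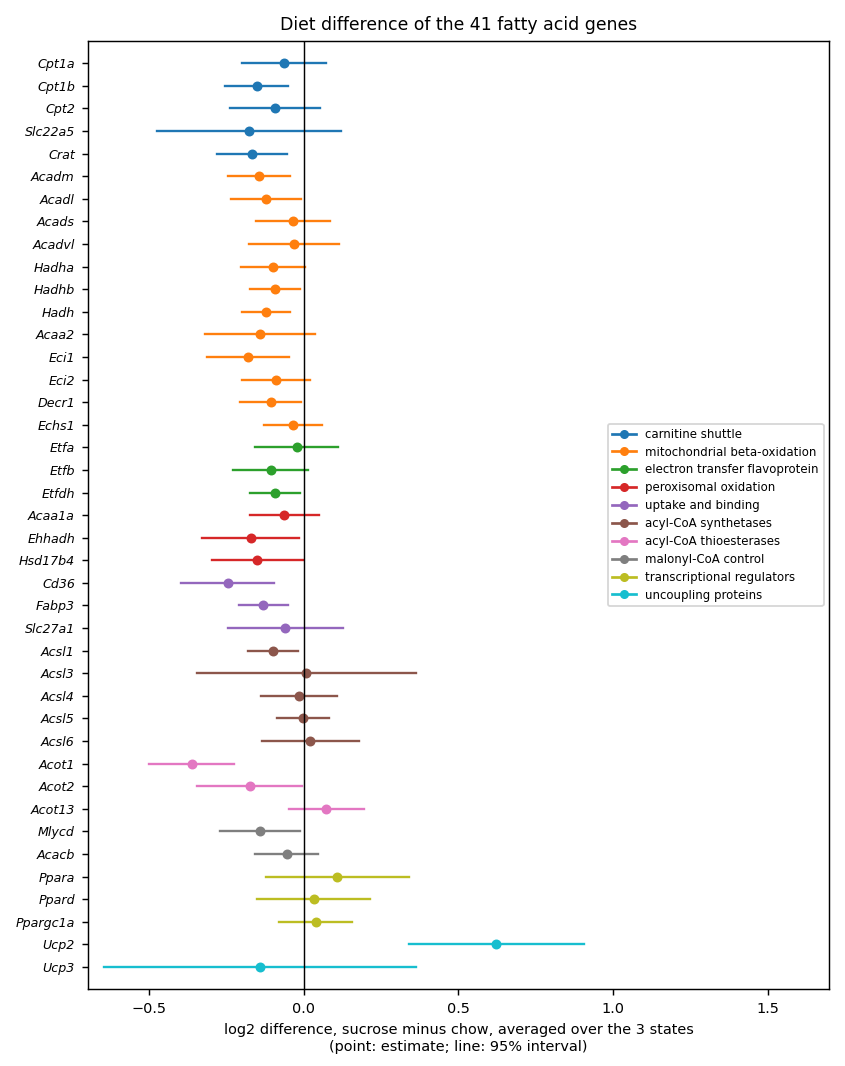
Log2 difference of each of the 41 genes, sucrose minus chow, averaged over the 3 states (horizontal axis), with its 95% interval as a line, coloured by role. Points lie left of 0 for 34 genes, Acot1 lies lowest at -0.36 and Ucp2 highest at 0.62, and no gene passed the adjusted threshold.

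The intervals bound what the arrays could have missed. For 38 of 41 members the 95% interval of the averaged diet difference lay within 0.5 on either side of 0, and the median distance from estimate to interval end was 0.12. Exceptions were Acot1, Ucp2 and Ucp3, the mitochondrial carrier of muscle related to the uncoupling protein of brown fat. Within a single state, 33 of 41 intervals lay within 0.5 in each of the 3 comparisons.

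Among the steps of the pathway, Cpt1b, the muscle form of the enzyme that makes acylcarnitines, differed by -0.15 (SE 0.05, adjusted p = 0.548) and Crat, which makes acetylcarnitine, by -0.17 (SE 0.06, adjusted p = 0.621). In beta-oxidation the differences ran from -0.18 for Eci1, an isomerase for unsaturated chains, to -0.03 for Acadvl, the very long chain dehydrogenase, with Acadm, the medium chain dehydrogenase, at -0.15. The median was -0.10 for beta-oxidation, -0.15 for the carnitine shuttle, -0.15 for peroxisomal oxidation, -0.13 for uptake and binding and -0.09 for the electron transfer flavoprotein system. Synthetases were divided, with 3 of 5 lower and a median of 0.00. Ppara, Ppard and Ppargc1a, which encode PPAR-alpha, PPAR-delta and PGC-1alpha, differed by 0.11, 0.03 and 0.04, with adjusted p of 0.893, 0.963 and 0.926.

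The 5 members with the smallest p-values in the average were Acot1, Ucp2, Fabp3, Cd36 and Hadh. Values below are log2 signals minus the 75th percentile of the array, in order of replicate 1 to 5, and are not comparable between genes.

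Acot1 encodes a cytosolic thioesterase that splits acyl-CoA and is a classic PPAR-alpha target. In mannitol hearts it read -0.53, -0.98, -0.52, -0.57 and -0.47 on sucrose and 0.18, -0.06, -0.26, -0.37 and 0.03 on chow. In glucose hearts it read -0.45, -0.49, -0.55, -0.66 and -0.31 on sucrose and -0.07, -0.17, -0.06, -0.21 and -0.27 on chow. In non-perfused hearts it read -1.07, -0.56, -0.81, -0.50 and -0.62 on sucrose and -0.71, -0.31, -0.35, -0.60 and -0.40 on chow. Every sucrose array lay below every chow array in the mannitol and in the glucose hearts, while the non-perfused hearts overlapped. Such separation in either direction was seen in 1.81% of all genes in mannitol hearts, 0.813% in glucose hearts and 0.502% in non-perfused hearts. The differences were -0.52 (SE 0.12, adjusted p = 0.26) in mannitol hearts, -0.34 (SE 0.12, adjusted p = 0.999) in glucose hearts and -0.23 (adjusted p = 1) in non-perfused hearts. On average Acot1 was 1.29-fold lower in sucrose hearts (log2 -0.36, SE 0.07, 95% interval -0.50 to -0.23, adjusted p = 0.0699 in limma). The average lay between -0.44 and -0.30 within the 4 complete slides, lower in 4 of 4. It passed the threshold with slide as a fixed block, with slide as a random block (adjusted p = 0.0297), with normexp background correction, and without sucrose non-perfused replicate 4 (adjusted p = 0.0338). Over the non-perfused and glucose hearts alone it was -0.29 (adjusted p = 0.654), and the other settings gave an adjusted p of up to 0.999. Acot2, its mitochondrial neighbour, is nearly identical in sequence, so the probes of these genes may each detect both. Acot2 differed by -0.18 (SE 0.08, adjusted p = 0.749).

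Ucp2 encodes a mitochondrial carrier of the uncoupling protein family, found in many cell types including immune cells. In mannitol hearts it read 0.57, 1.39, 0.98, 0.61 and 1.60 on sucrose and 0.39, -0.10, 0.40, -0.35 and -0.19 on chow. In glucose hearts it read 1.37, 1.05, 1.02, 0.85 and 0.84 on sucrose and -0.31, 0.26, 0.36, 0.46 and 0.24 on chow. In non-perfused hearts it read 1.097, 1.35, 1.48, 0.63 and 0.97 on sucrose and 1.17, 1.14, 1.36, 1.56 and 0.08 on chow. Sucrose arrays lay above all chow arrays in both kinds of perfused hearts, and the diets overlapped in non-perfused hearts, where chow replicate 5 stood apart below the rest. The difference was 1.00 (SE 0.24, adjusted p = 0.306) in mannitol, 0.82 (SE 0.24, adjusted p = 0.999) in glucose and 0.05 (adjusted p = 1) in non-perfused hearts. Averaged, Ucp2 was 1.54-fold higher in sucrose hearts (log2 0.62, SE 0.14, 95% interval 0.34 to 0.91, adjusted p = 0.203), and 0.40 to 0.73 within slides, higher in 4 of 4. Its averaged difference passed only with normexp background correction (adjusted p = 0.0353) and was 0.44 over the non-perfused and glucose hearts alone (adjusted p = 0.857). The change of the diet difference with perfusion, averaged over both buffers, was 0.86 (95% interval 0.27 to 1.46) and did not pass (adjusted p = 0.999).

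Cd36 encodes the fatty acid translocase at the cell surface. In non-perfused hearts it read 6.56, 6.66, 6.26, 6.66 and 6.54 on sucrose and 6.68, 6.92, 6.76, 6.83 and 6.76 on chow. In mannitol hearts it read 6.25, 6.39, 6.67, 6.79 and 6.62 on sucrose and 6.86, 6.55, 6.69, 6.70 and 6.73 on chow. In glucose hearts it read 6.30, 6.71, 5.97, 6.67 and 5.999 on sucrose and 6.63, 6.47, 6.87, 6.74 and 6.57 on chow. The diets did not overlap in non-perfused hearts and overlapped in the others. On average the difference was -0.25 (SE 0.07, 95% interval -0.40 to -0.10, adjusted p = 0.51), and a dimmer probe of the gene gave -0.31.

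Fabp3 encodes the heart form of the cytosolic fatty acid binding protein. In non-perfused hearts it read 7.29, 7.47, 7.35, 7.41 and 7.53 on sucrose and 7.51, 7.48, 7.48, 7.51 and 7.47 on chow. In mannitol hearts it read 7.33, 7.14, 7.41, 7.24 and 7.12 on sucrose and 7.52, 7.43, 7.45, 7.49 and 7.34 on chow. In glucose hearts it read 7.30, 7.36, 7.19, 7.25 and 7.36 on sucrose and 7.30, 7.43, 7.57, 7.49 and 7.24 on chow. The diets overlapped in each state, and the sucrose mean lay below the chow mean in all 3. The average was -0.13 (SE 0.04, 95% interval -0.21 to -0.05, adjusted p = 0.51).

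Hadh encodes the mitochondrial dehydrogenase of short chain 3-hydroxyacyl-CoA. In mannitol hearts it read 7.05, 7.18, 7.26, 7.11 and 7.12 on sucrose and 7.49, 7.402, 7.47, 7.41 and 7.44 on chow. In glucose hearts it read 7.29, 7.30, 7.26, 7.34 and 7.42 on sucrose and 7.44, 7.56, 7.51, 7.31 and 7.37 on chow. In non-perfused hearts it read 7.32, 7.48, 7.55, 7.42 and 7.54 on sucrose and 7.45, 7.32, 7.45, 7.26 and 7.60 on chow. Only the mannitol hearts separated by diet, by -0.30 (SE 0.07, adjusted p = 0.221), and the average was -0.12 (SE 0.04, adjusted p = 0.51). Over the non-perfused and glucose hearts alone it was -0.03.

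Members whose arrays did not overlap between diets numbered 2 of 41 in non-perfused, 6 in mannitol and 3 in glucose hearts, where 0.502%, 1.81% and 0.813% of all genes did not. They were Cd36 and Mlycd (lower on sucrose) in non-perfused hearts, Ucp2 (higher) with Acaa2, Acot1, Acsl1, Crat and Hadh (lower) in mannitol hearts, and Ucp2 (higher) with Acot1 and Cpt2 (lower) in glucose hearts. Mlycd encodes malonyl-CoA decarboxylase, Acaa2 the thiolase that ends a beta-oxidation cycle, and Cpt2 the inner membrane carnitine palmitoyltransferase.

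**Figure D2:**
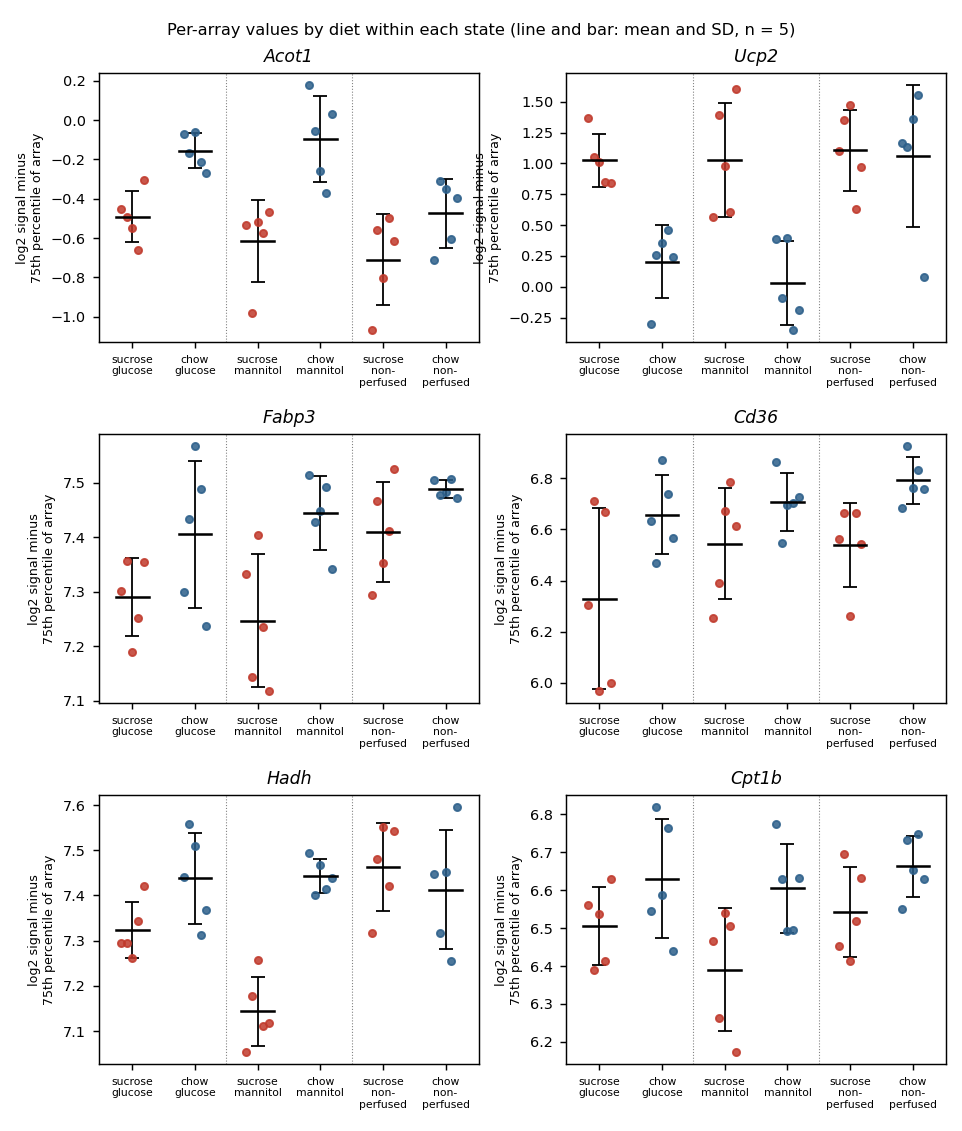
Log2 signal minus the array's 75th percentile (vertical axis) of 6 genes on each array, sucrose (red) beside chow (blue) within glucose, mannitol and non-perfused hearts, with the mean and SD of 5 arrays. Acot1 and Ucp2 separate by diet in both kinds of perfused hearts, and Cpt1b, shown as the gatekeeper of the shuttle, overlaps in each state.

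Perfusion for 60 min was compared with no perfusion in each diet and buffer. Few members changed, and Acsl4 rose in all 4 comparisons. Acacb rose in chow hearts with either buffer, Acot1 rose in chow mannitol hearts, Ppard rose with glucose in both diets, Ucp2 fell in chow hearts with either buffer, and Hadh and Etfb fell in sucrose mannitol hearts. Of the 12 genes of beta-oxidation, 11 passed in none of these comparisons, and neither did any gene of the carnitine shuttle, uptake and binding or peroxisomal oxidation. These results rest on the brightest probe of each gene. For mannitol and glucose, a dimmer probe of Cpt1b gave 0.365 and 0.354 on chow, against -0.057 and -0.032. On sucrose it gave 0.088 and 0.193, against -0.152 and -0.036. A dimmer probe of Hadha gave -0.15 and -0.169 on chow, against 0.071 and 0.023. On sucrose it gave -0.285 and -0.408, against -0.111 and -0.013. A dimmer probe of Acot2 gave 0.564 and 0.514 on chow, against 0.264 and 0.281. On sucrose it gave 0.221 and 0.381, against 0.161 and 0.336. Second probes of Cd36 and Acaa1a ran from -0.168 to 0.216 and from -0.114 to -0.016.

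In chow mannitol hearts 4 of 41 members passed, 3 higher and 1 lower, where 8.49% of all genes passed, 4.83% higher and 3.65% lower. In chow glucose hearts 4 passed, 3 higher and 1 lower, where 9.5% of all genes passed, 5.47% higher and 4.04% lower. In sucrose mannitol hearts 3 passed, 1 higher and 2 lower, where 11.2% of all genes passed, 5.53% higher and 5.67% lower. In sucrose glucose hearts 2 passed, both higher, where 8.68% of all genes passed, 5.54% higher. The members' shares were thus close to or below those of all genes. At an unadjusted p under 0.05 the members' shares, in the same order, were 12.2%, 19.5%, 17.1% and 14.6%, against 19.5%, 20.5%, 23.2% and 20.4% of all genes. Member medians were 0.00, -0.01, -0.06 and -0.04 in that order, and all-gene medians -0.01, -0.05, -0.04 and -0.03. Arrays that did not overlap between perfused and non-perfused hearts were common, in 9.51%, 9.44%, 9.23% and 8.14% of all genes in that order. Among the 41 members, 2, 3, 1 and 1 lay wholly above and 0, 2, 2 and 2 wholly below the non-perfused arrays. The comparisons within a diet share their non-perfused arrays. Chow mannitol hearts shared slide row 1 with the chow non-perfused hearts, whereas in both glucose comparisons, and for 4 of 5 arrays in the sucrose mannitol comparison, perfusion and slide row cannot be told apart. Glucose and mannitol on chow also lay in different rows.

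**Figure D3:**
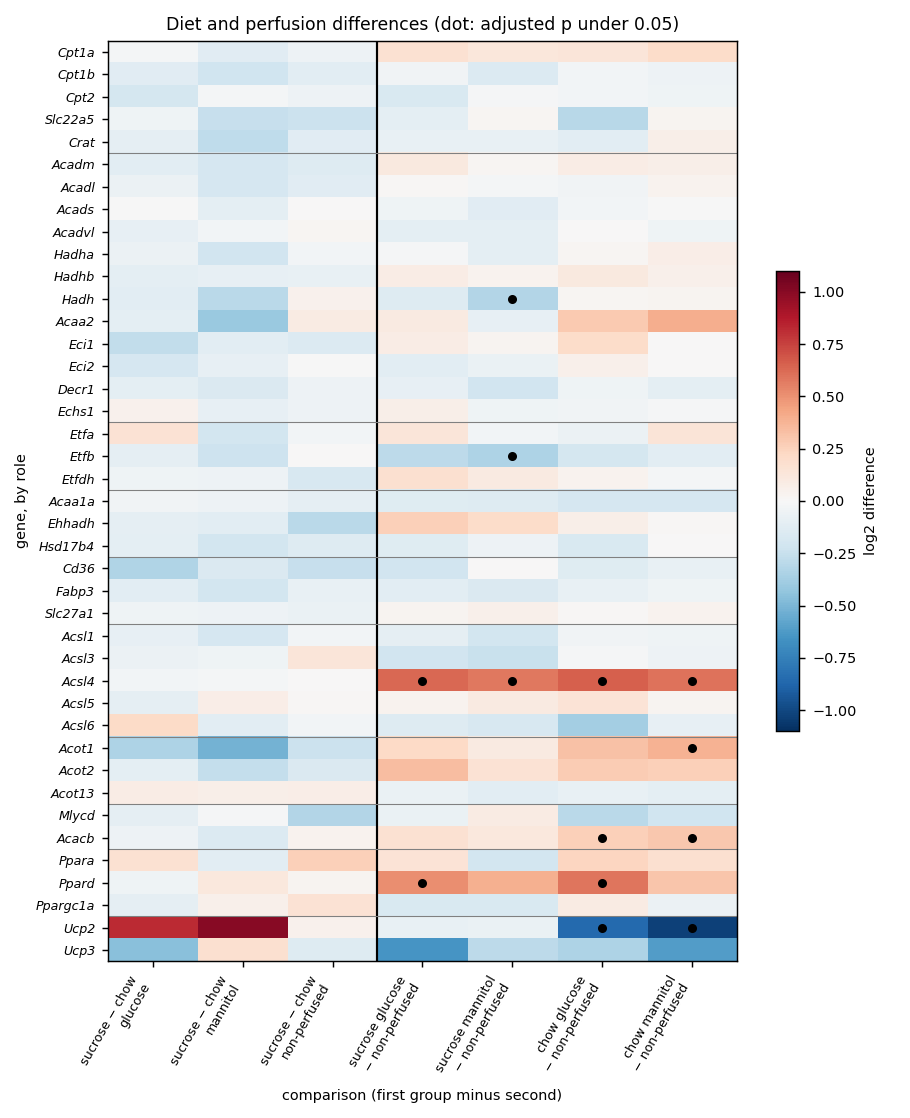
Log2 difference (colour, red higher and blue lower in the first group) of the 41 genes in the 3 diet comparisons (left of the line) and the 4 perfusion comparisons (right of it). Black dots mark adjusted p under 0.05: none among the diet comparisons, and Acsl4 in all 4 perfusion comparisons.

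Acsl4 encodes the acyl-CoA synthetase that prefers arachidonate. On chow it read -2.27, -2.43, -2.44, -2.22 and -2.08 in glucose, -2.34, -2.18, -2.25, -2.46 and -2.50 in mannitol and -2.67, -3.38, -2.80, -2.90 and -2.97 in non-perfused hearts. On sucrose it read -2.14, -2.38, -2.49, -2.32 and -2.27 in glucose, -2.41, -2.19, -2.32, -2.48 and -2.43 in mannitol and -3.07, -2.85, -2.91, -2.85 and -3.05 in non-perfused hearts. Within each diet every perfused array lay above every non-perfused array. Acsl4 was 1.58-fold (glucose) and 1.52-fold (mannitol) higher on chow, log2 0.66 and 0.60, and 1.55-fold (glucose) and 1.49-fold (mannitol) higher on sucrose, log2 0.63 and 0.58 (SE 0.10 for each). The adjusted p-values were 4.57e-05, 0.000197, 1e-04 and 0.000299, and the rise held its direction in 4 of 4 complete slides in each comparison, from 0.36 to 0.96. The rise passed where both groups lay in 1 slide row, in chow mannitol hearts. Its signal is dim, well above background on 4 of 5 chow non-perfused arrays and all others. The call ended only with the authors' deposited values, where the differences were 0.51 and 0.64 on chow and 0.78 and 0.67 on sucrose for glucose and mannitol. With normexp background correction the call held at smaller sizes, 0.42 and 0.37 on chow and 0.36 and 0.32 on sucrose.

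Ppard encodes PPAR-delta, a receptor abundant in muscle. On chow it read -1.37, -0.83, -1.25, -0.98 and -1.18 in glucose, -1.48, -1.22, -1.42, -1.51 and -1.37 in mannitol and -2.004, -1.44, -1.78, -1.51 and -1.81 in non-perfused hearts. On sucrose it read -0.72, -1.29, -1.03, -1.01 and -1.79 in glucose, -1.05, -1.77, -1.29, -1.18 and -1.14 in mannitol and -1.74, -1.63, -1.84, -1.62 and -1.56 in non-perfused hearts. Chow glucose arrays lay above all chow non-perfused arrays, and on sucrose only glucose replicate 5 fell among the non-perfused ones. With glucose the rise was 1.5-fold on chow (log2 0.59, SE 0.16, adjusted p = 0.0129) and 1.43-fold on sucrose (log2 0.51, SE 0.16, adjusted p = 0.0354), and it was 0.53 to 0.63 and 0.34 to 0.82 within slides. With mannitol the differences were 0.31 on chow and 0.39 on sucrose and did not pass. The dimmer second probe of Ppard did not show this: it gave 0.13 and 0.23 on chow and -0.07 and -0.03 on sucrose for glucose and mannitol. The sucrose call was lost without any of sucrose non-perfused replicates 1, 2, 3 or 4 or sucrose glucose replicates 1, 3 or 4 (log2 0.40 to 0.53, adjusted p up to 0.13), and in 8 of the 12 other alternatives (adjusted p up to 0.383). Among these was the mean of both probes, with a log2 of 0.22 (adjusted p = 0.187). The chow call was lost with normexp and with the authors' deposited values (adjusted p up to 0.584).

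Acacb encodes acetyl-CoA carboxylase 2, which makes the malonyl-CoA that inhibits CPT1. On chow it read -1.27, -1.50, -1.31, -1.13 and -1.37 in glucose, -1.11, -1.28, -1.28, -1.48 and -1.25 in mannitol and -1.64, -1.56, -1.68, -1.64 and -1.37 in non-perfused hearts. On sucrose it read -1.17, -1.39, -1.52, -1.27 and -1.52 in glucose, -1.57, -1.56, -1.34, -1.30 and -1.35 in mannitol and -1.57, -1.45, -1.63, -1.47 and -1.58 in non-perfused hearts. On chow the perfused arrays lay mostly above the non-perfused ones with some overlap, through non-perfused replicate 5. The rise on chow was 1.23-fold with mannitol (log2 0.30, SE 0.09, adjusted p = 0.0253) and 1.2-fold with glucose (log2 0.26, SE 0.09, adjusted p = 0.0499), and within slides 0.08 to 0.50 and 0.07 to 0.50. On sucrose the differences were 0.12 with mannitol and 0.17 with glucose and did not pass. The glucose call was lost without any 1 of 21 of the 30 arrays (log2 0.22 to 0.28, adjusted p up to 0.151). It was also lost in 8 of the 12 other alternatives (adjusted p up to 0.815), among them normexp, no filter, the replicate block and the mean over probes. The mannitol call was lost in 4 of 12 (adjusted p up to 0.837), with normexp, the authors' deposited values, only the groups compared and the 4 arrays of wide control spread left out, and also without chow non-perfused replicate 1, 3 or 4 or chow mannitol replicate 1 or 5 (adjusted p up to 0.0864). Mlycd, whose enzyme breaks malonyl-CoA down, differed by -0.30 with glucose on chow (adjusted p = 0.0942).

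Acot1, whose values stand above, was 1.3-fold higher in chow mannitol than in chow non-perfused hearts (log2 0.38, SE 0.12, adjusted p = 0.0402) and differed by 0.32 in chow glucose hearts (adjusted p = 0.0901). The chow glucose arrays lay above all chow non-perfused arrays, and the chow mannitol arrays overlapped with them through mannitol replicate 4. Within slides the mannitol difference was -0.06 to 0.55, higher in 3 of 4. On sucrose the differences were 0.10 with mannitol and 0.22 with glucose. The mannitol call was lost without chow non-perfused replicate 1, 4 or 5 or chow mannitol replicate 1, 2 or 5 (log2 0.31 to 0.40, adjusted p up to 0.134). It was also lost with slide as a fixed block, the replicate block, no filter on dim probes, only the groups compared and the authors' deposited values (log2 0.34 to 0.42, adjusted p up to 0.701).

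Ucp2 was 2.04-fold lower in chow mannitol than in chow non-perfused hearts (log2 -1.03, SE 0.24, adjusted p = 0.00474) and 1.81-fold lower in chow glucose hearts (log2 -0.86, SE 0.24, adjusted p = 0.0186). On sucrose the same comparisons gave -0.08 and -0.08. Of the chow non-perfused arrays, 4 lay between 1.14 and 1.56, above all 10 perfused chow arrays, and replicate 5 at 0.08 lay among the perfused ones. Without that array the difference was -1.27 with mannitol and -1.1 with glucose. The glucose call was lost without chow non-perfused replicate 3 or 4 or chow glucose replicate 1 (log2 -0.78, -0.73 and -0.73, adjusted p up to 0.0656). With only the groups compared it was lost too (adjusted p = 0.0901). The mannitol call held with each array left out, and within slides the differences were -1.65 to -0.22 with mannitol and -1.1 to -0.65 with glucose. Of 7 macrophage and leukocyte markers, 3 (S100a8, S100a9 and Cd79b) fell and Ptprc rose with perfusion on chow, and on sucrose the same 3 fell while Ptprc and Mrc1 rose. The summed level of the 7 markers on the log2 scale was 0.93 to 1.13 in chow glucose, 0.81 to 1.13 in chow mannitol and 0.86 to 1.07 in chow non-perfused hearts, with S100a8 and Cd79b well above background on 7 of 30 arrays each. S100a8 and Cd79b met the limit on dim probes only in chow non-perfused hearts, and S100a9 only in non-perfused hearts. The filter thus favoured a fall of these genes with perfusion, so the fall is no independent result. Mrc1 was well above background on only 3 of 5 sucrose non-perfused arrays, so its rise on sucrose starts near background. The part of the 7 markers in the Ucp2 result was not tested. In whole ventricle, fewer cells of a type and less RNA per cell cannot be told apart.

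Etfb encodes the beta subunit of the electron transfer flavoprotein. On sucrose it read 6.02, 6.23, 6.26, 6.20 and 6.02 in glucose, 6.18, 5.99, 6.11, 5.98 and 6.21 in mannitol and 6.32, 6.72, 6.52, 6.32 and 6.29 in non-perfused hearts. On chow it read 6.05, 6.28, 6.48, 6.36 and 6.04 in glucose, 6.51, 6.49, 6.14, 6.32 and 6.14 in mannitol and 6.28, 6.41, 6.52, 6.60 and 6.36 in non-perfused hearts. All sucrose arrays with either buffer lay below the sucrose non-perfused arrays, while the chow states overlapped. Etfb was 1.27-fold lower in sucrose mannitol hearts (log2 -0.34, SE 0.10, adjusted p = 0.0271), and differed by -0.29 in sucrose glucose hearts (adjusted p = 0.0797). Hadh was 1.25-fold lower in sucrose mannitol than in sucrose non-perfused hearts (log2 -0.32, SE 0.07, adjusted p = 0.00132), and its arrays did not overlap there. Within slides the differences in that comparison were -0.74 to -0.20 for Etfb and -0.44 to -0.17 for Hadh. The change of the Hadh diet difference with perfusion was -0.26 (95% interval -0.42 to -0.09, adjusted p = 0.999). Both calls were lost with quantile normalization (Etfb -0.17 and Hadh -0.12) and with the authors' deposited values (-0.17 and -0.14). The Etfb call was also lost with normexp and with only the groups compared, and without sucrose non-perfused replicate 2 or 3 or sucrose mannitol replicate 2 or 4 (log2 -0.27 to -0.32, adjusted p up to 0.0947). In the same comparison 1 of 8 cardiomyocyte markers, Pln, fell by 0.34 (adjusted p = 0.0101), their median was -0.25, and their summed level was 11.41 to 12.03 in sucrose mannitol and 11.99 to 12.21 in sucrose non-perfused hearts. Their part in the Hadh and Etfb results was not tested.

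**Figure D4:**
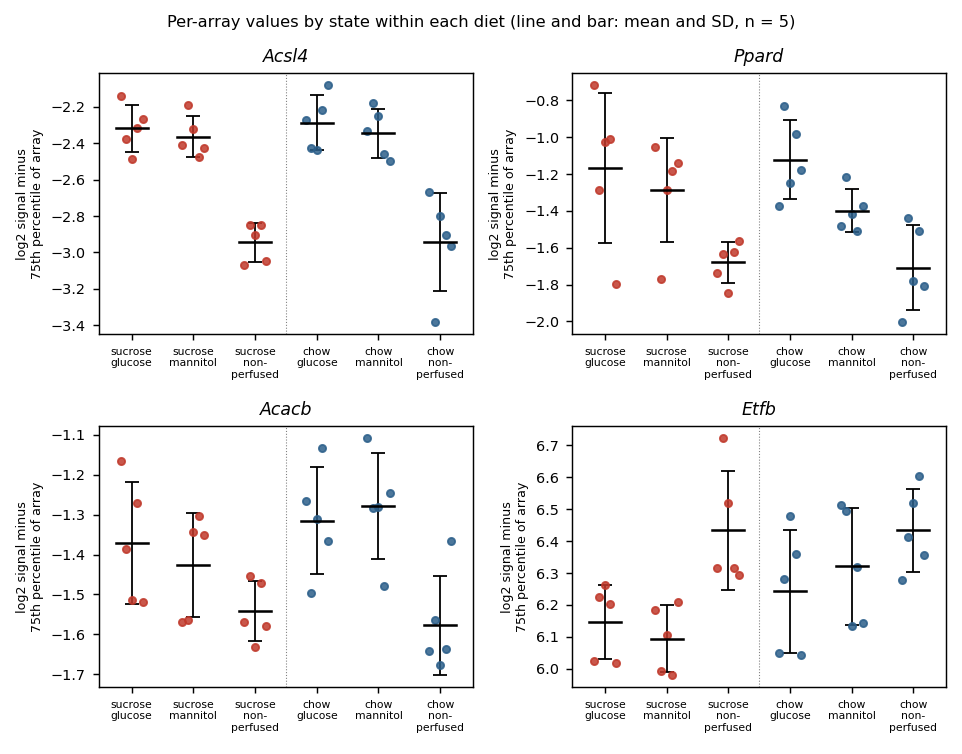
Log2 signal minus the array's 75th percentile (vertical axis) of Acsl4, Ppard, Acacb and Etfb on each array, by glucose, mannitol and non-perfused hearts within sucrose (red) and chow (blue), with the mean and SD of 5 arrays. Perfused Acsl4 arrays lie between -2.50 and -2.08, above all 10 non-perfused arrays.

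Glucose was compared with mannitol in perfused hearts of each diet. No member passed on chow or sucrose, where 0% and 0.00545% of all genes did. At an unadjusted p under 0.05 there was 1 member on chow, Acsl6, a synthetase of brain and muscle (log2 -0.29, adjusted p = 0.999), and 1 on sucrose, Hadh (log2 0.18, adjusted p = 0.97), against 3.9% and 5.06% of all genes. On sucrose 30 of 41 members were higher with glucose, beside 10253 of all 18333 genes, with a median of 0.04 beside 0.02 for all genes. Likewise 0 members passed in the interaction of diet with perfusion and 0 in that of diet with buffer, where 0% of all genes did. Unadjusted, 2 members stood out in the first, Hadh and Ucp2, and 1 in the second, Etfa, the alpha subunit of the flavoprotein (log2 0.37, adjusted p = 0.984), against 3.8% and 5.01% of all genes.

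Genes of the same pathway outside the 41 were taken from lists of 87 genes, of which 77 were measured. These lists, too, were chosen with earlier results of these data known. Their counts beside all genes, and the share of each list in them, are therefore not independent support. In the averaged diet comparison none passed, beside 0.00545% of all genes tested. An unadjusted p under 0.05 was seen for 10 of 77, beside 6.51% of all genes. In sucrose hearts 52 of 77 were lower, beside 55.9% of all genes, with a median of -0.04 beside -0.01. With perfusion, 7 of 77 rose and 0 fell in chow glucose hearts, where 5.47% of all genes rose and 4.04% fell. In chow mannitol hearts 6 rose and 1 fell (4.83% and 3.65% of all genes). In sucrose glucose hearts 7 rose and 2 fell (5.54% and 3.14%). In sucrose mannitol hearts 5 rose and 5 fell (5.53% and 5.67%). Most of the rises came from other PPAR targets, 19 of 20 measured, with Pdk4, Angptl4, Plin2 and Lipe up in all 4 comparisons. Angptl4, a secreted inhibitor of lipoprotein lipase, rose 21.7-fold in chow glucose and 14.7-fold in chow mannitol hearts, and 10.5-fold in sucrose glucose and 5.51-fold in sucrose mannitol hearts (adjusted p = 0.00151 at the highest). Pdk4, the kinase that inhibits pyruvate dehydrogenase, rose 3.48-fold and 3.1-fold on chow and 2.73-fold and 2.2-fold on sucrose, for glucose and mannitol. Plin2, which coats lipid droplets, rose 1.6-fold and 1.27-fold on chow and 1.31-fold and 1.29-fold on sucrose, in the same order. Among the 41 members, the PPAR targets Acot1, Cpt1a, Ucp3 and Ehhadh passed in 1, 0, 0 and 0 of those 4 comparisons.

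Txnip, a glucose-responsive gene in the same list, rose 1.54-fold in chow glucose and 1.55-fold in sucrose glucose hearts and fell 1.55-fold in sucrose mannitol hearts, each against non-perfused hearts. Among other regulators and synthesis genes, Slc25a1, the citrate carrier that feeds fatty acid synthesis, rose in all 4 comparisons (1.3-fold to 1.41-fold). Its signal is dim, well above background on 4 of 5 non-perfused arrays of each diet. Nr1h3, the liver X receptor alpha, fell in 3 of them (log2 -0.43 to -0.55), those in sucrose hearts and in chow mannitol hearts.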

How the data were processed

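Total RNA of 30 rat left ventricles was labelled with Cy3 and hybridised to single-colour Agilent arrays, per the labels' protocols. The deposited scanner files hold processed intensity values, background-corrected in Agilent Feature Extraction 11.0.1.1 per the file headers, while the submitters' processing notes name version 10.3. The authors' deposited table holds log2 values whose scaling between arrays is not given in the sources used here, and it served as an alternative only.

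The log2 of the deposited intensity minus each array's 75th percentile was computed after control spots and outlier flags were left out, and spots of a probe were averaged. Of 30367 probes, 18355 had 1 gene symbol through RefSeq accessions, 0 several and 12012 none. The brightest probe represented a gene. A probe was kept if any group had 4 or 5 of its 5 arrays well above background. Group means of all 30 arrays were fitted with limma 3.58.1 (lmFit and eBayes) in R 4.3.3, and adjusted p-values are Benjamini-Hochberg over 18333 genes with a threshold of 0.05. Intervals are at 95%. The number of arrays limits the precision.

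Members and lists were chosen with earlier results of these data known. Genes described by array were those past the threshold in any comparison and the 5 with the smallest p in the averaged diet comparison. From related lists at most 4 called genes per list and comparison were named. Replicate numbers did not pair the samples: deviations from group means correlated at -0.0366 on average between same-numbered samples and at 0.00974 between others. Between samples of different groups on the same slide they correlated at 0.204 on average. The main fit had no slide term, so its p-values leave this correlation out, and slide entered only among the alternatives. In data simulated for chow mannitol against chow non-perfused hearts over 18333 genes, the model recovered 74% of 100 genes changed by a log2 of 1 and 100% of 100 changed by 2, and 8.42% of its calls were false. The simulated noise was independent between arrays, without the slide correlation of the data. No change below a log2 of 1 was simulated, so recovery at the size of most member differences is not known. The alternatives were the normalization, background correction, filter, probe choice, slide, replicate block, the samples fitted, each array left out and, chosen after seeing the data, the states whose diets share a slide row. Promoter windows came from RefSeq on GRCr8 and were matched by symbol.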

Additional observations from a re-analysis of the deposited data

Results flagged for a closer look

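Among 246 sets of 5 arrays (41 genes in 6 groups), 14 (5.69%) had 1 array far from the other 4 by Dixon's criterion of 0.71 for the gap over the range. Chance gives about 1 in 20. All values are log2 signals minus the array's 75th percentile.

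In the carnitine shuttle, Cpt1a read 0.02 on chow glucose replicate 5 against 0.23 to 0.27 on the others. Cpt2 read 4.59 on sucrose mannitol replicate 1, the array alone on its slide, against 3.57 to 3.84. Slc22a5, the carnitine transporter, read -4.07 on chow glucose replicate 4 against -3.27 to -2.99. In beta-oxidation, Acadm read 6.79 on chow mannitol replicate 2 against 6.6 to 6.63, Acadvl 4.72 on sucrose non-perfused replicate 1 against 5.05 to 5.17, and Eci2 4.12 on chow glucose replicate 4 against 4.31 to 4.35. Etfa read 3.53 on chow mannitol replicate 5 against 3.19 to 3.27.

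Acsl3, a dim synthetase probe, stood apart in both sucrose glucose replicate 3, at -3.26, and chow mannitol replicate 2, at -2.87. Acot1 read -0.98 on sucrose mannitol replicate 2 against -0.57 to -0.47 on the others of that group. Mlycd read 4.78 on chow non-perfused replicate 4 against 4.6 to 4.65. Ucp2 read 0.08 on chow non-perfused replicate 5 and -0.31 on chow glucose replicate 1. Ucp3 read -0.43 on sucrose non-perfused replicate 1 against 1.07 to 1.43. Chow glucose replicate 4, chow mannitol replicate 2 and sucrose non-perfused replicate 1 each appear 2 times.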

How the results depend on the processing

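The count of members past the threshold stayed at 0 in the diet comparisons within each state, in glucose against mannitol and in both interactions, under every alternative run and with each array left out. For the averaged diet comparison it was 2 with normexp background correction (Acot1 and Ucp2) and 1 with slide as a fixed or random block (Acot1), against 0, and 0 to 1 with an array left out. With quantile normalization 1 member passed in sucrose mannitol and 1 in sucrose glucose hearts, against 3 and 2. With normexp 2 passed in chow glucose and 1 in sucrose glucose hearts, against 4 and 2. With the authors' deposited values 1 passed in chow mannitol, 1 in chow glucose, 0 in sucrose mannitol and 0 in sucrose glucose hearts. In sucrose glucose hearts 1 passed with no filter, the mean over probes, the replicate block, only the groups compared, or leaving out arrays whose controls spread widely. The replicate block, whose numbers do not pair the samples, otherwise left the counts within 1.5 times. With an array left out, counts ran from 2 to 4 in chow mannitol, 2 to 5 in chow glucose, 2 to 5 in sucrose mannitol and 1 to 2 in sucrose glucose hearts. The causes were not tested. Results past the threshold and the diet differences of Acot1, Ucp2, Cd36, Fabp3 and Hadh kept their sign where run. Of the other members, Acads, Acsl3, Acsl4, Acsl5, Acsl6, Echs1, Etfa, Ppard and Slc27a1, all near 0 in the averaged diet comparison, changed sign under at least 1 alternative or left-out array. In the averaged diet comparison 31 to 35 of 41 members were lower under all alternatives, beside 49.5% to 65.9% of all genes. In sucrose mannitol against non-perfused hearts, however, 10 to 30 members were lower, 25 in the values reported, beside 43.7% to 64.8% of all genes. The authors' values shifted the median of all genes by -0.12 in the non-perfused diet comparison. Slc22a5, Acsl3 and Acsl4 were not well above background on every array. Ehhadh, though well above it on all 30, was also dim, with a mean signal of -2.72 beside -2.53 for Acsl4.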
